A study of Mus musculus with 9 samples.

Results

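The genes described here are 10 reported beta-catenin targets and WNT feedback genes, out of 24736 genes in the deposited table. They were taken by symbol, under a rule that uses no measured value, although they were chosen with earlier results of these data known. All 10 were found. Sp5, Lef1 and Tcf7 encode transcription factors. Axin2 and Nkd1 encode inhibitors that act inside the cell, and Notum and Dkk1 encode secreted inhibitors. Znrf3 and Rnf43 encode membrane ubiquitin ligases that remove Frizzled receptors, and Lgr5 encodes a receptor for R-spondins, which hold these ligases in check.

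This pathway, the canonical WNT pathway, acts through beta-catenin, which is held low by a destruction complex that contains the kinase GSK3 and the scaffold protein AXIN. When GSK3 is inhibited, beta-catenin accumulates and binds the TCF/LEF DNA-binding factors at its target genes. Many of these targets are feedback genes, since they encode inhibitors or receptors of the same pathway. In the posterior embryo WNT signalling sustains the caudal epiblast, the progenitor region from which spinal cord and paraxial mesoderm are made.

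RNA sequencing was done on 9 cultures of mouse embryonic stem cells differentiated in vitro to caudal epiblast-like cells (CEpiLCs), with 3 biological replicates per genotype. The genotypes were wild type (WT), Cdx1, Cdx2 and Cdx4 triple mutant (CdxKO) and T/Bra mutant (T/BraKO). All 3 groups received bFGF (10 ng per ml) throughout, and LGK974 (5 uM), which inhibits Porcupine and so the secretion of WNT ligands. CHIR99021, an inhibitor of GSK3, was added after 2 days, and cells were collected on day 3 (72 h). No group without CHIR99021 was analysed here, so the values compare genotypes under GSK3 inhibition and do not measure the response to it. The lines were grown on feeder cells before differentiation, the number of clones behind each mutant line is not given in the sources used here, and p-values measure the spread between these cultures only.

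Total expected counts ranged from 25124344 to 34705361 per library. The targeted genes followed the labels. Between 1777 and 2894 normalised counts of T remained in T/BraKO libraries, against 10900 to 14760 in WT. Cdx1, Cdx2 and Cdx4 were lower in CdxKO than in WT, at log2 fold changes of -0.98, -2.03 and -6.14 (DESeq2, adjusted p = 0.00373, 0.0147 and 2.12e-12). The CdxKO libraries also held at most 3 counts of Eif2s3y, Uty and Ddx3y, genes of the Y chromosome whose group means in WT were 1059 to 2055 normalised counts, although the study's methods derive all lines from 1 male line. Hprt stood at 3938 normalised counts in T/BraKO and 21.7 in WT. The lines therefore differ in more than the named mutations, and genotype and line cannot be told apart in any comparison below.

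The caudal epiblast marker Nkx1-2 was at 189 to 417 TPM (a share of all transcripts, scaled for transcript length) in every library, and Fgf8 was at 13.3 to 60.6 TPM. The summed TPM of 6 neural progenitor markers was 5.05 to 24.4 over the libraries. Within this list Sox1 was at 1.09 to 10.6 TPM, Irx3 at 2.60 to 10.9 and Hes5 at 0.63 to 2.69, while Pax6, Olig2 and Dbx1 stayed at or below 0.17 TPM. Of the mesoderm markers, Foxc2 and Hand2 stayed at or below 0.29 TPM, and Meox1, Foxf1, Gata4 and Gata6 at or below 1.22. Msgn1 ranged from 0.26 to 47.6 TPM, Dll3 from 14.3 to 47.2, Tbx6 from 0.55 to 12.4 and Tcf15 from 2.62 to 6.76. Hand1 ranged from 1.05 to 8.62 TPM and Kdr from 2.70 to 9.64. The summed TPM of 6 paraxial mesoderm markers was 18.7 to 35.1 in T/BraKO, 58.3 to 92.8 in WT and 33.1 to 112 in CdxKO. The sum of 6 lateral mesoderm markers was 14.6 to 16.4 in CdxKO, 8.16 to 13.7 in WT and 6.11 to 9.57 in T/BraKO. The sum of 7 feeder fibroblast markers was 33.9 to 59.4 in WT, 41.8 to 77.9 in CdxKO and 33.0 to 54.5 in T/BraKO. In bulk RNA, fewer cells of a type and less RNA per cell cannot be told apart.

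RefSeq promoter windows on GRCm38.p6, each from 250 bases before to 50 bases after a transcription start, were held for 7 of the 10 genes, in 12 windows. They were searched on both strands for CTTTGA, the core of the TCF/LEF binding motif. It occurred in 3 of the 12 windows and in 3 of the 7 genes, and in 16.0% of all 32851 mouse windows of that length. The Sp5 window is shown because Sp5 differed between T/BraKO and both other genotypes in every fit, the Dkk1 window because Dkk1 had the widest range of fold change, and the Axin2 window, with no match, because Axin2 is a widely used readout of the pathway. Capitals mark CTTTGA, or TCAAAG where the match is on the other strand. The windows are chr2:70474673-70474972 (plus strand), chr19:30549447-30549746 (minus strand) and chr11:108920099-108920398 (plus strand), each printed 5' to 3' along its gene.
Sp5: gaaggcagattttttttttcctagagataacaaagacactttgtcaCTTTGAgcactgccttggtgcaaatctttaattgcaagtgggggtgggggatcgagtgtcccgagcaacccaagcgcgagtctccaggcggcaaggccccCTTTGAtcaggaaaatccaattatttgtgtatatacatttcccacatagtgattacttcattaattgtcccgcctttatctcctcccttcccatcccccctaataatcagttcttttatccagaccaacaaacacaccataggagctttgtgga
Dkk1: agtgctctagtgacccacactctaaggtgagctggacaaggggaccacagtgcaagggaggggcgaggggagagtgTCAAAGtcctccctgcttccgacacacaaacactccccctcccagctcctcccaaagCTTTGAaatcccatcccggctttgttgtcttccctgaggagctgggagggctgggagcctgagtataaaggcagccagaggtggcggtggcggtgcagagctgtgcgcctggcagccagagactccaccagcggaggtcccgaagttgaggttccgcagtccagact
Axin2: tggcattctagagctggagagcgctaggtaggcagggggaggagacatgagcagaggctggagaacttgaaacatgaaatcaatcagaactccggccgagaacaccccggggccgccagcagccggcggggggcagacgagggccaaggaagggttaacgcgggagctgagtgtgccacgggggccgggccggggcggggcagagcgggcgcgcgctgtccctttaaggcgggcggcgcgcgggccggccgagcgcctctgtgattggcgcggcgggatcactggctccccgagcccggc

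The Sp5 matches began 204 and 104 bases before the start, and the nearer one read CTTTGAT, which was in 3.73% of all windows. The Dkk1 matches began 174 and 117 bases before the start. The third gene with matches was Lef1, where both lay in the window of an internal start at chr3:131156044-131156343, beginning 180 and 120 bases before it. No match for GGTGTGA, a T-box half-site, or for CCATAAA, a CDX motif, was found in the 12 windows, against 3.98% and 2.75% of all windows. A match is a description of these letters and not of binding, and no match says nothing of sites outside the window.

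**Figure D1:**
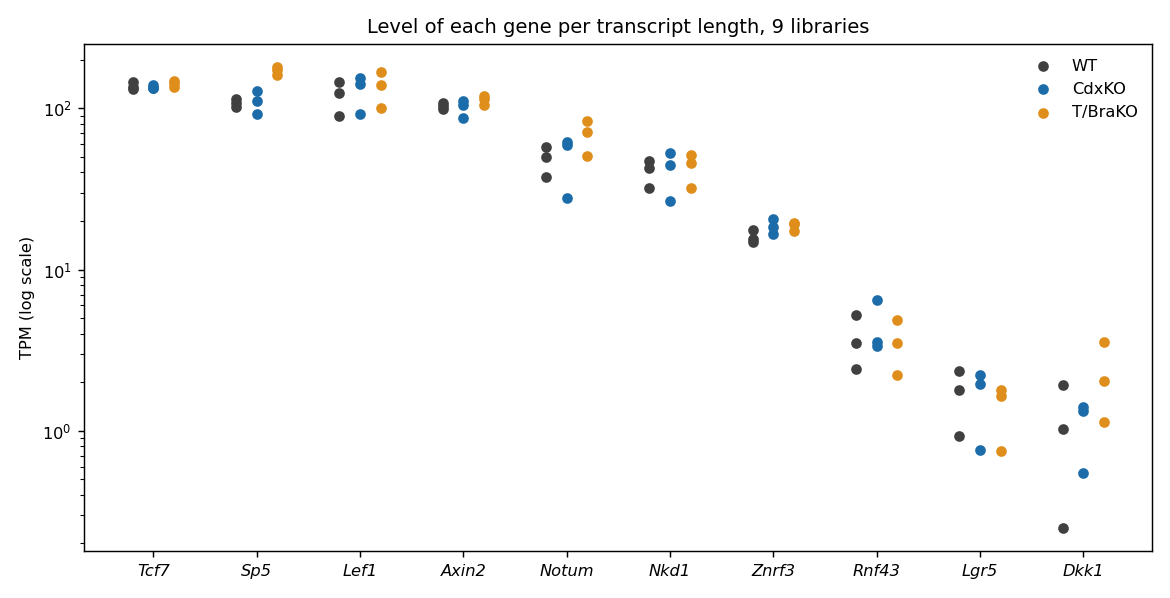
TPM of each gene on a log axis, with 1 point per library and 3 libraries per genotype. Tcf7, Sp5, Lef1 and Axin2 lay between 87.4 and 180 TPM in all libraries, while Rnf43, Lgr5 and Dkk1 lay between 0.25 and 6.50 TPM.

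Per transcript length, the transcription factors and Axin2 were the most abundant of the 10 genes. Mean TPM over the 9 libraries was 139 ± 5.94 (SD) for Tcf7, 130 ± 33.0 for Sp5, 128 ± 28.5 for Lef1 and 106 ± 9.19 for Axin2, and the ranges of these 4 genes overlapped. Notum followed at 55.5 ± 16.9 TPM and Nkd1 at 41.7 ± 9.28 TPM, again with overlapping ranges. Znrf3 lay apart from its neighbours at 17.7 ± 1.89 TPM. Its paralog Rnf43 was at 3.90 ± 1.38 TPM, so that the ratio of Znrf3 to Rnf43 ranged from 3.15 to 7.81 within a library. Lgr5 at 1.57 ± 0.612 TPM and Dkk1 at 1.46 ± 0.965 TPM had the lowest means, and the ranges of Rnf43, Lgr5 and Dkk1 overlapped, so these 3 could not be ordered. The summed TPM of the 10 genes was 578 to 583 in WT, 538 to 638 in CdxKO and 670 to 732 in T/BraKO. The T/BraKO sums thus lay above those of WT and CdxKO, but the sum is weighted to abundant genes. Sp5 differed most in TPM between T/BraKO and WT, with means of 171 and 108. The means of Rnf43 and Lgr5 were lower in T/BraKO than in WT.

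In CdxKO against WT, none of the 10 genes passed an adjusted p of 0.05, whether the replicate number was left out of the DESeq2 model (0 of 10) or included as a block (0 of 10). Over all genes tested, 0.693% were called without the block and 5.31% with it. At an unadjusted p under 0.05 the count in DESeq2 without the block was also 0, and the unadjusted count with the block is not given here. The edgeR test called 0 without the block and 1 with it, Znrf3, beside 0.110% and 4.56% of all genes. In T/BraKO against WT, Sp5 alone was called without the block (1 of 10 higher), with 0.148% of all genes called higher. With the block 5 of 10 were called higher, Sp5, Notum, Dkk1, Znrf3 and Lef1, with 4.83% of all genes called higher. The edgeR test with the block called 4 higher, beside 4.30% of all genes. None was called lower by DESeq2 in either fit, where 0.937% and 4.85% of all genes were. The median log2 fold change of the 10 genes was 0.19 without the block in T/BraKO against WT, and 0.03 in CdxKO against WT, beside 0.00 over all genes in both. In CdxKO against T/BraKO, 1 of 10 was called lower without the block (Sp5) and 4 of 10 with it (Sp5, Notum, Dkk1 and Axin2), against 0.962% and 6.90% of all genes, and none was called higher, against 2.52% and 7.75%. The edgeR test with the block called 3 lower, beside 8.52%. All 3 comparisons share samples, and the block rests on same-numbered libraries deviating together. All 10 genes had an adjusted p in every comparison.

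**Figure D2:**
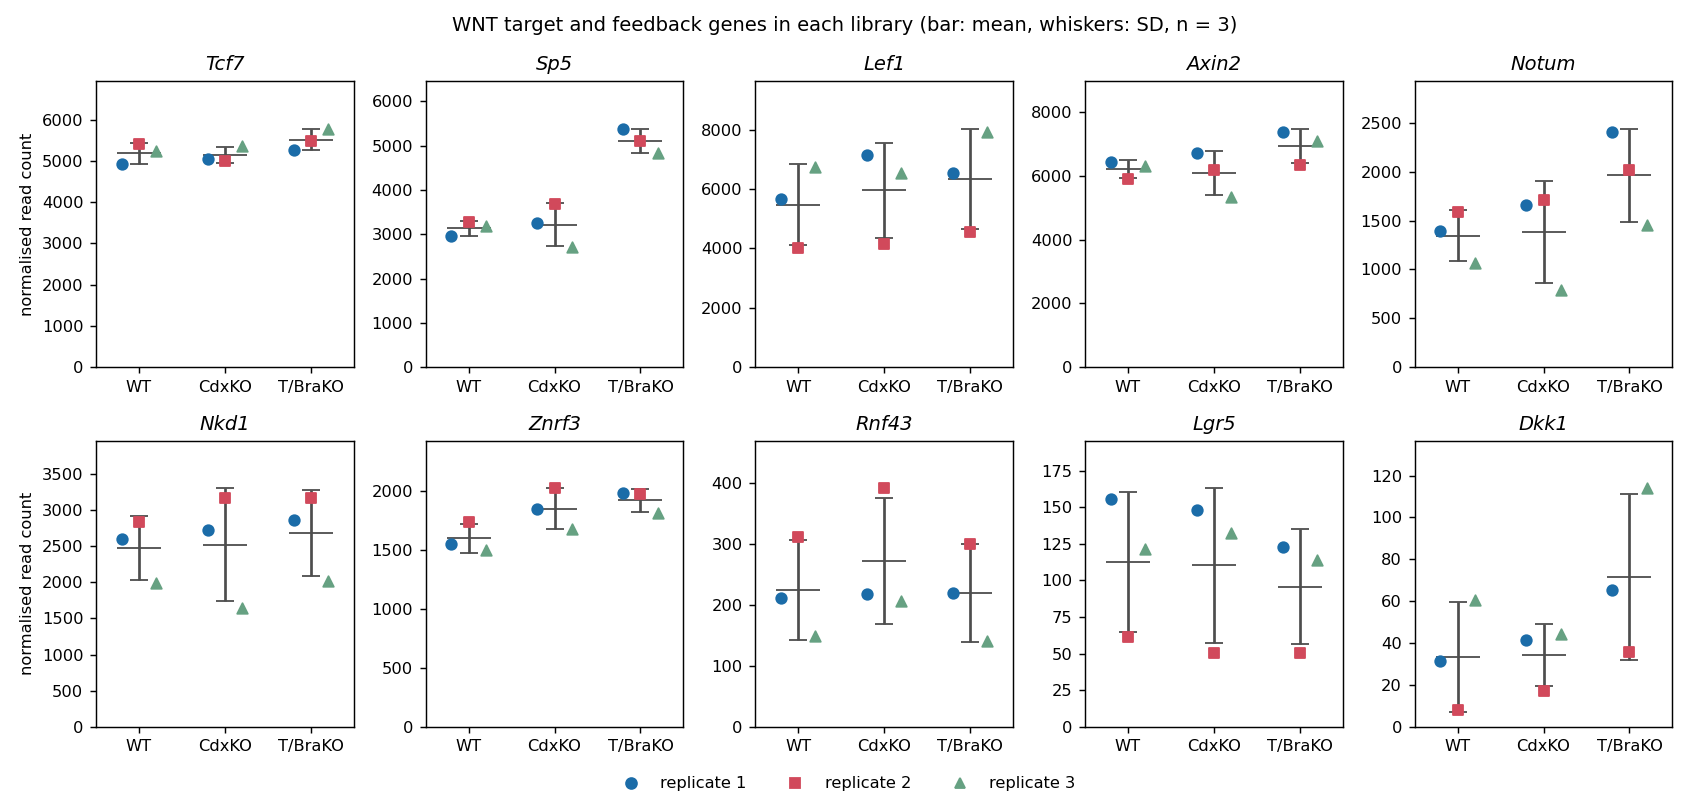
Normalised read counts of the 10 genes in each library, with replicates 1, 2 and 3 as circles, squares and triangles, the group mean as a line and the SD as whiskers (n = 3). All 3 T/BraKO libraries lay above all 6 others for Sp5 (4844 to 5385 against 2709 to 3676), while for Lgr5 the replicate 2 library was lowest in every genotype.

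Sp5 encodes an SP-family zinc finger protein and is a reported direct target of beta-catenin. The gene lies at chr2:70474923-70477729 on GRCm38. Its normalised read counts were 2950, 3266 and 3195 in WT replicates 1, 2 and 3, 3252, 3676 and 2709 in CdxKO, and 5385, 5097 and 4844 in T/BraKO. Every T/BraKO library was above every library of the other groups, while WT and CdxKO overlapped. Over all genes tested, all 3 T/BraKO libraries lay above all 3 WT libraries in 3.69%, and all 3 CdxKO libraries below all 3 T/BraKO libraries in 6.92%. Sp5 rose in T/BraKO over WT by a log2 fold change of 0.70 ± 0.125 (SE), a 1.63-fold difference with a 95% interval of 1.37 to 1.93 (DESeq2, adjusted p = 6.19e-06). The edgeR test gave an adjusted p of 0.0352. With each of the 9 libraries left out in turn the log2 fold change stayed between 0.66 and 0.74, and the call was kept each time. Between CdxKO and WT the fold was 1.02 with an interval of 0.864 to 1.21 (adjusted p = 1.00), and the direct difference of CdxKO from T/BraKO was -0.67 ± 0.125 (adjusted p = 1.01e-05). Without the block, 2 of the 6 paraxial mesoderm markers were called lower in T/BraKO than in WT (Tbx6 and Msgn1), beside 0.937% of all genes. In the same comparison 1 of 7 feeder fibroblast markers was called lower (Postn), and of 6 caudal epiblast markers Fgf8 and Wnt3a were called lower and Fgf17 higher. With the block, Dll3 (paraxial mesoderm), Col1a1 and Col1a2 (feeder), Kdr (lateral mesoderm), Foxa2 (endoderm) and Irx3 (neural) were also called lower, beside 4.85% of all genes. Nkx1-2 and Evx1 (caudal epiblast) and Tfcp2l1 (naive pluripotency) were then also called higher, beside 4.83%. Between CdxKO and T/BraKO without the block, Col1a1, Col1a2 and Postn of the feeder list were called higher in CdxKO and Thy1 lower. Of the caudal epiblast list, Fgf8 was called higher in CdxKO and Fgf17, Nkx1-2 and Wnt8a lower. The paraxial mesoderm markers Tbx6 and Msgn1 and the lateral mesoderm marker Hand1 were called higher in CdxKO. Over all genes 2.52% were called higher there and 0.962% lower. With the block, Evx1 was also called lower in CdxKO, and Dll3, Kdr, Foxa2, Trh (endoderm) and Zfp42 (naive pluripotency) higher. Over all genes 6.90% were then called lower and 7.75% higher. The part of these markers in the difference of Sp5 was not tested.

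Lef1 and Tcf7 encode the TCF/LEF factors that are themselves raised by WNT signalling. Lef1 (chr3:131110471-131224356) had 5664, 4017 and 6755 normalised counts in WT, 7167, 4152 and 6554 in CdxKO, and 6539, 4560 and 7932 in T/BraKO replicates 1, 2 and 3. The groups overlapped widely, and replicate 2 was lowest in each. The log2 fold change of T/BraKO from WT was 0.21 ± 0.269 without the block (DESeq2, adjusted p = 1.00) and 0.21 ± 0.0736 with it (adjusted p = 0.0498; edgeR with the block 0.102). The latter call was lost without any 1 of the 6 WT and T/BraKO libraries or without CdxKO replicate 2, where the adjusted p reached 0.528. For CdxKO against WT the log2 difference was 0.12 ± 0.269 (adjusted p = 1.00).

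Tcf7 (chr11:52252371-52283014) varied least among the 10 genes. Its normalised counts were 4915, 5416 and 5230 in WT, 5050, 4993 and 5358 in CdxKO, and 5267, 5479 and 5778 in T/BraKO. Its fold was 0.990 in CdxKO, with an interval of 0.892 to 1.10, and 1.06 in T/BraKO, with an interval of 0.958 to 1.18, and neither passed the test in either fit. Within a library, the TPM ratio of Lef1 to Tcf7 was 0.615, 0.690 and 0.695 in the replicate 2 libraries of WT, CdxKO and T/BraKO, and between 0.949 and 1.15 in the other 6.

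Axin2 encodes the inducible scaffold of the destruction complex (chr11:108920349-108950783). It had 6421, 5890 and 6317 normalised counts in WT, 6720, 6192 and 5350 in CdxKO, and 7383, 6355 and 7104 in T/BraKO. CdxKO replicate 3 was the lowest library and T/BraKO replicate 1 the highest, and the groups overlapped. The fold over WT was 0.980 in CdxKO (95% interval 0.842 to 1.14) and 1.12 in T/BraKO (0.962 to 1.302), with adjusted p of 1.00 for both (DESeq2). With the block, CdxKO was lower than T/BraKO by a log2 fold change of -0.19 ± 0.0704 (adjusted p = 0.0451). That call was kept in only 2 of 9 fits with 1 library left out, those without CdxKO replicate 2 or T/BraKO replicate 2, and the log2 fold change ranged from -0.26 to -0.09.

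Nkd1, which encodes an antagonist that binds Dishevelled (chr8:88521354-88594884), did not pass any genotype test. Its normalised counts were 2603, 2840 and 1987 in WT, 2733, 3176 and 1651 in CdxKO, and 2861, 3165 and 2016 in T/BraKO, so the same-numbered libraries resembled each other more than the libraries of a genotype. The fold over WT was 1.02 in CdxKO (95% interval 0.718 to 1.44) and 1.08 in T/BraKO (0.763 to 1.54).

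Notum encodes a secreted enzyme that removes the lipid from WNT proteins (chr11:120653788-120661175). Its normalised counts were 1390, 1590 and 1064 in WT, 1660, 1714 and 786 in CdxKO, and 2409, 2023 and 1459 in T/BraKO. Within each number the T/BraKO library was the highest, by a log2 difference from WT of 0.79, 0.35 and 0.46, although the groups overlapped. The log2 fold change of T/BraKO from WT was 0.54 ± 0.297 without the block (DESeq2, adjusted p = 1.00) and 0.53 ± 0.113 with it (adjusted p = 1.19e-04). This call was lost without WT replicate 1, WT replicate 2, CdxKO replicate 1 or T/BraKO replicate 3, with an adjusted p of up to 0.352. CdxKO was lower than T/BraKO with the block by -0.55 ± 0.113 (adjusted p = 3.83e-05), which was lost without WT replicate 2, CdxKO replicate 1 or T/BraKO replicate 3, with an adjusted p of up to 0.232. Between CdxKO and WT the fold was 1.03 with a 95% interval of 0.688 to 1.54.

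Dkk1 encodes a secreted inhibitor that binds the co-receptors LRP5 and LRP6 (chr19:30545863-30549665), and it was read from few counts. Its expected counts were 28, 8 and 65 in WT, 33, 19 and 47 in CdxKO, and 59, 39 and 127 in T/BraKO replicates 1, 2 and 3. For the 8 counts in WT replicate 2 the exact 95% Poisson interval was 3.45 to 15.8, which covers counting error only. T/BraKO was highest and replicate 2 lowest within each set of same-numbered or same-genotype libraries. The log2 fold change of T/BraKO from WT was 1.10 ± 0.679 without the block (DESeq2, adjusted p = 1.00) and 1.25 ± 0.381 with it (adjusted p = 0.0165). The call was lost without WT replicates 1 or 2 or any 1 T/BraKO library, with log2 fold changes of 0.97 to 1.62 and an adjusted p of up to 0.224. CdxKO lay below T/BraKO with the block by -1.04 ± 0.376 (adjusted p = 0.0413), which was kept in 1 of 9 such fits, the one without WT replicate 2, and reached an adjusted p of 0.395. The interval of the fold between CdxKO and WT, 0.402 to 2.60, was too wide to bound the difference.

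Znrf3 (chr11:5276324-5444847) was at 1549, 1736 and 1500 normalised counts in WT, 1843, 2019 and 1677 in CdxKO, and 1976, 1974 and 1805 in T/BraKO. All 3 T/BraKO libraries lay above all 3 WT libraries, as in 3.69% of all genes tested, and CdxKO overlapped both. The log2 fold change of T/BraKO from WT was 0.27 ± 0.108 (DESeq2, adjusted p = 0.539), and 0.27 ± 0.0714 with the block (adjusted p = 0.00422). The latter was lost without WT replicate 1, T/BraKO replicate 1 or T/BraKO replicate 3, where the adjusted p rose to at most 0.1000. CdxKO exceeded WT in each number, by 0.25, 0.22 and 0.16 on the log2 scale. The fitted difference of 0.21 ± 0.0717 with the block did not pass (DESeq2, adjusted p = 0.0601), while edgeR with the block gave an adjusted p of 0.0424.

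Rnf43 (chr11:87662722-87735539) did not pass any genotype test. Its normalised counts were 212, 311 and 149 in WT, 217, 391 and 207 in CdxKO, and 220, 300.4 and 140 in T/BraKO, with complete overlap of the groups. The fold over WT was 1.21 in CdxKO (95% interval 0.734 to 2.01) and 0.982 in T/BraKO (0.593 to 1.63).

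Lgr5 (chr10:115450311-115587780) had 155, 60.9 and 121 normalised counts in WT, 148, 50.002 and 133 in CdxKO, and 122, 50.4 and 114 in T/BraKO. Within a number the 3 genotypes were close, with log2 differences from WT of at most 0.34 in size. The fold over WT was 0.979 in CdxKO (95% interval 0.502 to 1.91) and 0.850 in T/BraKO (0.436 to 1.66), and neither passed the test.

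**Figure D3:**
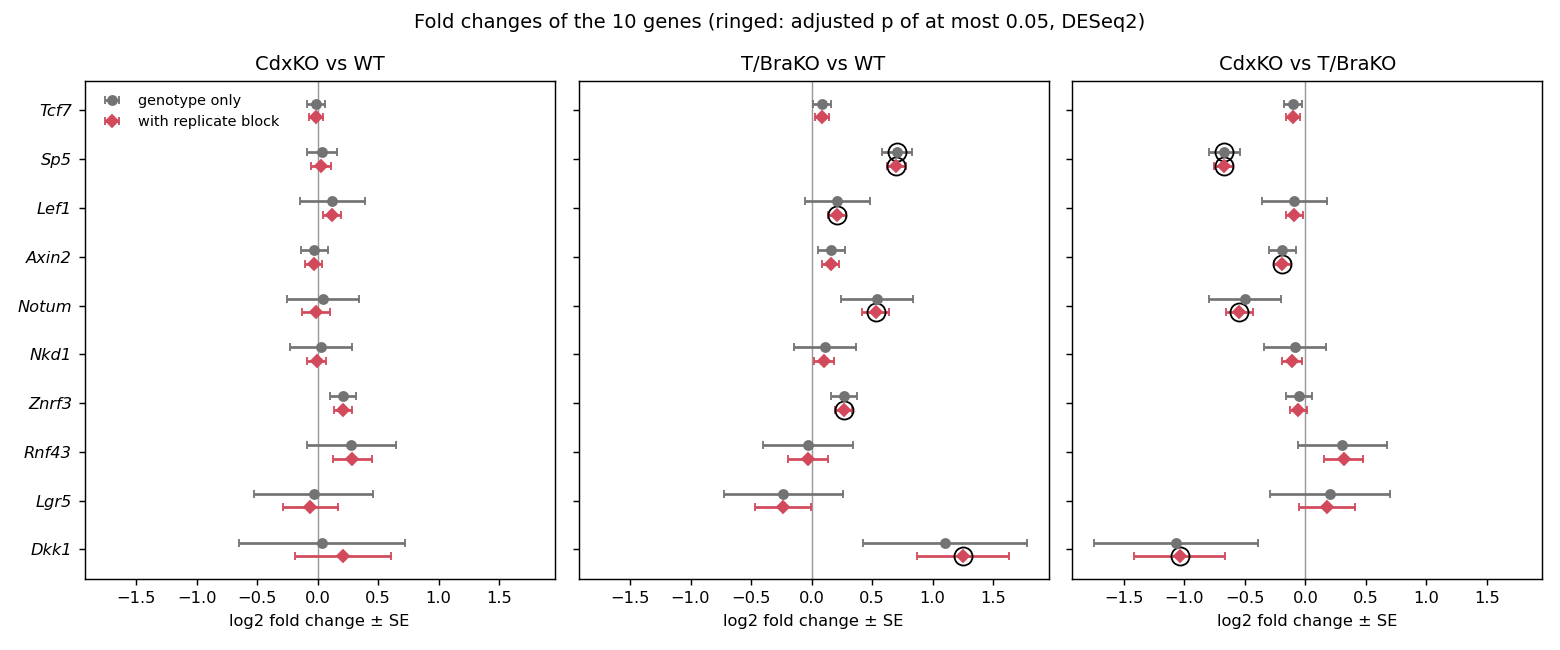
Log2 fold changes of the 10 genes with their SE, from DESeq2 without the block (grey circles) and with a block for the number (red diamonds), ringed where the adjusted p was at most 0.05. In T/BraKO against WT the estimate for Sp5 was 0.70 in each fit and that for Dkk1 1.10 and 1.25, while in CdxKO against WT Dkk1 moved from 0.03 to 0.21. The SE of Notum in T/BraKO against WT was 0.297 without the block and 0.113 with it.

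Lef1, Nkd1, Notum, Dkk1, Znrf3, Rnf43 and Lgr5 varied with the replicate number. By the likelihood ratio test of DESeq2 this was 7 of 10 genes, beside 47.9% of all genes. Sp5, Tcf7 and Axin2 were not called (adjusted p = 0.141, 0.279 and 0.110). Lgr5, Lef1 and Dkk1 were lowest in replicate 2 of each genotype, at mean log2 deviations from the genotype mean of -0.86 ± 0.112, -0.45 ± 0.0338 and -1.13 ± 0.461 (SD over 3 genotypes). Rnf43 and Nkd1 were highest in replicate 2 of each genotype, at 0.55 ± 0.0365 and 0.29 ± 0.0890. Notum, Nkd1, Znrf3 and Rnf43 were all lowest in replicate 3 of each genotype, with mean deviations of -0.48, -0.41, -0.10 and -0.48. Of the log2 variance within genotypes, the number accounted for 98.4% in Lgr5, 94.4% in Rnf43, 94.3% in Lef1 and 93.9% in Nkd1, but 40.9% in Sp5. Part of this variance falls to the number even where it has no effect, and the share over all genes is not given here. Leaving out 1 library gave 6 or 7 called genes.

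**Figure D4:**
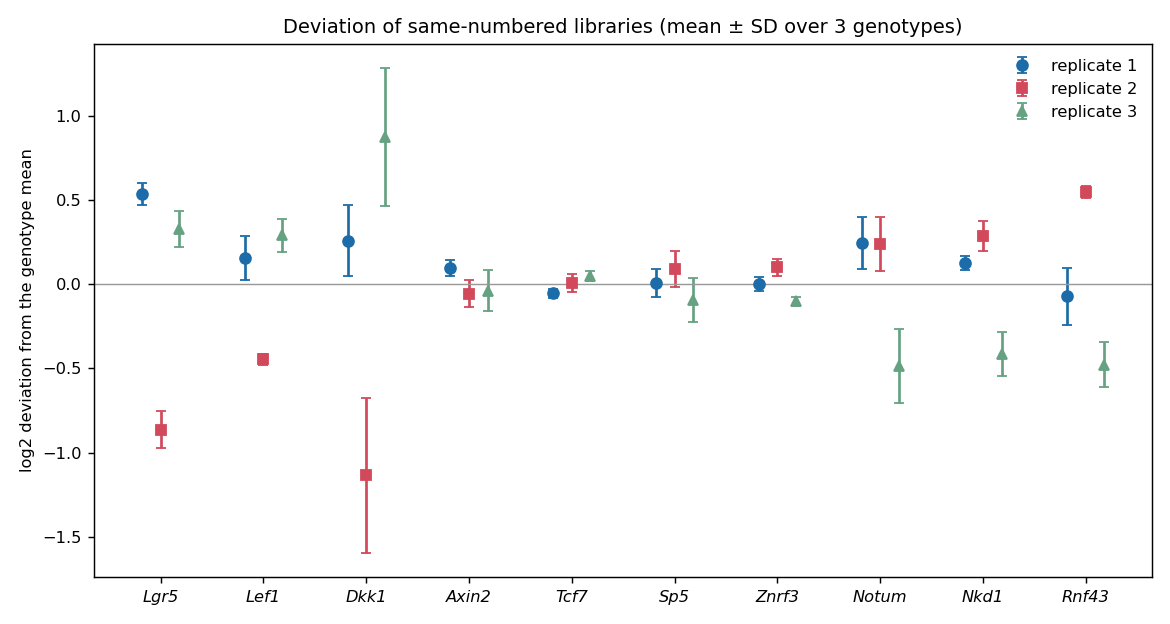
Mean log2 deviation of replicates 1, 2 and 3 from the mean of their genotype, with the SD over the 3 genotypes as whiskers. Replicate 2 lay at -0.86 for Lgr5 and at 0.55 for Rnf43, and replicate 3 at -0.48 for Notum.

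Markers moved with the replicate number as well. The summed TPM of 6 naive pluripotency markers was 133 to 178 in the replicate 2 libraries. It was 46.4 to 71.8 in replicate 1 and 86.6 to 98.5 in replicate 3. Nanog, at 28.5 to 135 TPM, was its largest part in every library, since no other marker exceeded 19.65 TPM. The study also names Nanog among early primitive streak markers. Of the 6 markers 5 varied with the number, all but Klf4. Each of these 5 was higher in replicate 2 than in replicate 1, by 0.92 (Zfp42) to 1.65 (Esrrb) on the log2 scale. The sum of 6 endoderm markers was 108 to 143 in replicate 3, against 19.8 to 49.5 in the others. Of these, Trh ranged from 10.9 to 111 TPM over the libraries, and the defining marker Sox17 stayed at or below 0.97 TPM. All 6 varied with the number. The ribosomal RNA gene Rn45s took 1.69% to 4.21% of counts in replicate 1 and 0.343% to 0.992% in the others. The part of these in the values of the 10 genes was not tested.

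The rest of the pathway was described by 7 lists that hold 106 other genes. In CdxKO against WT, 1 of 104 tested was called higher and 3 lower, and 5 and 5 of 90 tested with the block. In T/BraKO against WT 1 of 105 was higher and 2 lower, and 12 and 5 of 84 with the block, beside 0.148% and 0.937% of all genes without the block and 4.83% and 4.85% with it. Over all genes in CdxKO against WT, 0.335% were called higher and 0.358% lower without the block, and 3.40% and 1.91% with it. The median log2 fold change over the 106 genes was 0.05 in both comparisons. In CdxKO against T/BraKO 2 of 102 were higher and 3 lower, and 11 and 12 of 97 with the block, beside 2.52% and 0.962% of all genes without the block and 7.75% and 6.90% with it. Of the 94 of these genes tested for the replicate number, 56 (59.6%) varied with it, beside 47.9% of all genes.

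Among the 19 WNT ligands, Wnt3a and Wnt8a, both expressed in the posterior embryo, fell in CdxKO, and Wnt7b rose, by DESeq2. Without the block edgeR called none of these against WT, with adjusted p of 0.247 for Wnt3a, 0.264 for Wnt8a and 0.441 for Wnt7b in CdxKO, and 0.202 for Wnt3a in T/BraKO. Wnt8a was at 5015, 4566 and 4401 normalised counts in WT, 3046, 2615 and 2541 in CdxKO and 6098, 3757 and 5651 in T/BraKO. All CdxKO libraries lay below all others. Over all genes tested, all CdxKO libraries lay below all T/BraKO libraries in 6.92%, and the share against WT is not given here. The log2 fold change of Wnt8a in CdxKO was -0.77 ± 0.179 (DESeq2, adjusted p = 0.00511). That call was lost without WT replicate 1 or CdxKO replicate 3 (adjusted p of up to 0.155). Against T/BraKO it was -0.92 ± 0.179 (adjusted p = 3.18e-05), which was kept with each library left out. Wnt3a fell in both mutants, by -1.42 ± 0.291 in CdxKO (adjusted p = 4.60e-04) and -1.18 ± 0.290 in T/BraKO (adjusted p = 0.00726). The T/BraKO call was lost without WT replicate 1, T/BraKO replicate 1 or T/BraKO replicate 2 (up to 0.183). Wnt7b was at 70.9 ± 43.4 normalised counts (SD, n = 3) in WT and 252 ± 76.1 in CdxKO, a log2 fold change of 1.83 ± 0.454 (adjusted p = 0.0127), which was lost without WT replicate 2, WT replicate 3 or CdxKO replicate 1 (up to 0.388). Wnt5a, a ligand of non-canonical signalling, passed only with the block, at -0.84 ± 0.112 in CdxKO and 0.55 ± 0.108 in T/BraKO (adjusted p = 2.12e-11 and 2.02e-05). Wnt6, one of the most abundant ligands at 30.6 TPM in WT, was not called in any comparison. LGK974, which inhibits the secretion of WNT ligands, was present in all groups. Wnt3a and Wnt8a are also on the list of 6 caudal epiblast markers. The summed TPM of that list was 357 to 489 in CdxKO, 533 to 655 in WT and 520 to 764 in T/BraKO.

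Among the 19 receptors and co-receptors, the Frizzled gene Fzd10 gave the smallest adjusted p. Its normalised counts were 7082, 4326 and 5098 in WT, 2785, 1625 and 1665 in CdxKO, and 9448, 5886 and 7211 in T/BraKO. All CdxKO libraries lay below all others, a pattern whose share over all genes is given here against T/BraKO only (6.92%). WT and T/BraKO overlapped. Fzd10 fell in CdxKO by 1.44 ± 0.266 on the log2 scale (DESeq2, adjusted p = 4.06e-05; edgeR 0.168), and was 0.45 ± 0.0670 higher in T/BraKO than in WT with the block only (adjusted p = 1.41e-09). Kremen2, a co-receptor for DKK proteins, rose in T/BraKO by 0.83 ± 0.192 (DESeq2, adjusted p = 0.00263; edgeR 0.143), from 281 ± 27.1 to 501 ± 86.3 normalised counts. That call was lost without WT replicate 1, T/BraKO replicate 1 or T/BraKO replicate 2 (up to 0.0872). Fzd7 was lower in T/BraKO with the block only, at -0.59 ± 0.0907 (adjusted p = 7.30e-09). Fzd4 was higher in CdxKO than in T/BraKO by 0.64 ± 0.188 (DESeq2, adjusted p = 0.0215; edgeR 0.121), a call lost without any 1 of those 6 libraries (up to 0.236). Ryk, at 74.1 TPM in WT, was called in none.

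Of the 4 R-spondins, which enhance WNT signalling through LGR receptors, Rspo3 fell in T/BraKO. Its normalised counts were 1819, 890 and 963 in WT, 1437, 411 and 847 in CdxKO, and 355, 193 and 399 in T/BraKO. The T/BraKO libraries lay below all others, a pattern whose share over all genes is not given here. The log2 fold change was -1.95 ± 0.429 from WT (DESeq2, adjusted p = 0.00108). It was lost without any 1 of the WT and T/BraKO libraries or CdxKO replicate 3 (adjusted p of up to 0.204), and edgeR gave 0.203. The value of CdxKO over T/BraKO was 1.51 ± 0.430 (DESeq2, adjusted p = 0.0169; edgeR 0.221), lost without WT replicates 2 or 3, CdxKO replicates 1 or 3 or any 1 T/BraKO library (up to 0.363). Rspo1 was higher in T/BraKO than in WT with the block only (0.52 ± 0.169, adjusted p = 0.0289). The paraxial mesoderm marker sums given above were lower in all T/BraKO libraries than in all WT libraries, and their part was not tested.

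Among 14 TCF/LEF factors and co-regulators, the Groucho-family co-repressor genes Tle3 and Tle1 were higher in T/BraKO with the block, and none was called against WT without it. Tle3 averaged 5556 ± 481 normalised counts in T/BraKO, against 4331 ± 371 for WT and 4177 ± 402 for CdxKO (SD, n = 3). Its log2 fold change from WT was 0.36 ± 0.0614 with the block (DESeq2, adjusted p = 4.22e-07; 0.143 without it). CdxKO was lower than T/BraKO by -0.41 ± 0.116 without the block (DESeq2, adjusted p = 0.0155; edgeR 0.105), which was lost without CdxKO replicates 2 or 3 or T/BraKO replicates 1 or 3 (up to 0.200). Tle1 was at 0.33 ± 0.0810 over WT with the block (adjusted p = 0.00146). Bcl9, a beta-catenin co-activator, and Tle4 were called with the block between the mutants only, at -0.20 and 0.22 (adjusted p = 0.00701 and 0.0196). Ctnnb1, which encodes beta-catenin, was the most abundant at 521 TPM in CdxKO, 536 in T/BraKO and 542 in WT, and was called in none.

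None of the 16 genes of the destruction complex and signal transduction was called against WT in either fit, while 0.693% and 5.31% of all genes were in CdxKO and 1.08% and 9.68% in T/BraKO. Between the mutants Gsk3b, Fbxw11 and Amer2 were called with the block, at 0.18, 0.17 and -0.79 (DESeq2, adjusted p = 0.0122, 0.0234 and 0.0306). The kinase genes Csnk1a1 and Csnk1d, at 199 and 148 TPM in WT, were the most abundant and were not called. Of the 18 other inhibitors none was called in any of the 3 comparisons, although only 9 to 15 of them had an adjusted p with the block. The most abundant, Sfrp2 and Sfrp1, which encode secreted Frizzled-related proteins, were at 31.1 and 16.5 TPM in WT.

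Of the 16 other reported targets none was called without the block. With it, 3 of 14 tested were higher and 0 lower in CdxKO than in WT, beside 3.40% and 1.91% of all genes. In T/BraKO against WT 3 of 13 were higher and 1 lower, beside 4.83% and 4.85%. Between the mutants 3 of 14 were higher in CdxKO and 1 lower, beside 7.75% and 6.90%. Not all of these are named. Among them, Cdkn1a (0.49 ± 0.150, DESeq2 adjusted p = 0.0246) and Fosl1 (1.01 ± 0.335, adjusted p = 0.0478) were higher in CdxKO than in WT. Myc was higher in T/BraKO (1.02 ± 0.281, adjusted p = 0.00576), as was Ccnd1 (0.26 ± 0.0749, adjusted p = 0.00931). Myc and Ccnd1 promote the cell cycle, which Cdkn1a restrains. Myc ranged from 197 to 888 normalised counts within WT alone, and the groups overlapped.

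**Figure D5:**
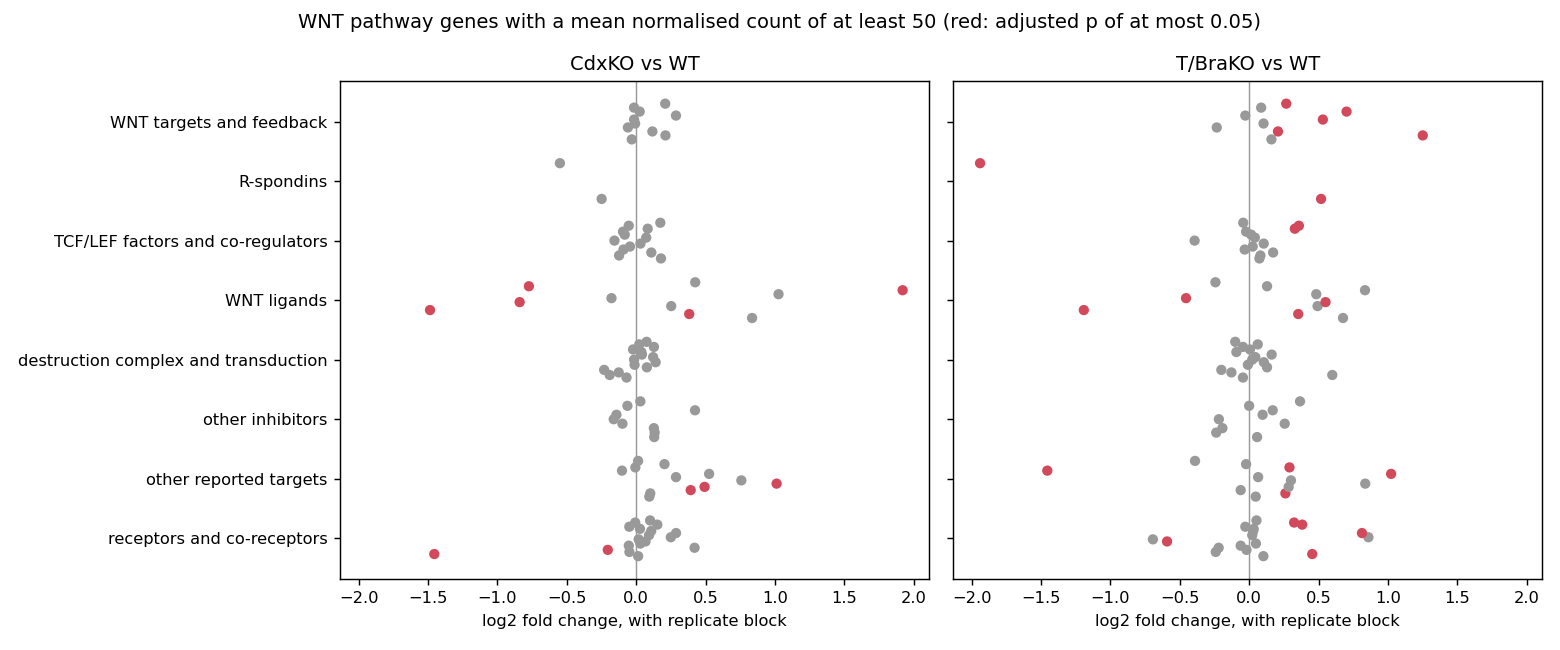
Log2 fold changes from DESeq2 with the replicate block for the 10 genes (top row) and for the 7 lists of other pathway genes, 1 point per gene whose normalised count averaged 50 or more, red where the adjusted p was at most 0.05. In T/BraKO 5 of the 10 genes are red and to the right of 0, and Fzd10 and Wnt3a lie farthest to the left in CdxKO (-1.45 and -1.49).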

How the data were processed

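Poly(A) RNA of 9 CEpiLC cultures was sequenced by the authors as 76 bp strand-specific single-end reads. Per the submitters' processing notes and the study's methods, adapters were trimmed with cutadapt 1.16, and reads were aligned with STAR 2.5.2a and quantified by strand with RSEM 1.3.0 against RefSeq genes of mm10. The deposited expected counts are RSEM estimates that need not be whole, because reads shared between genes are divided. The deposited TPM values were scaled by the authors' software for transcript length and library size. Other genes overlap several members in the annotation: on the other strand at Lef1, Tcf7, Axin2, Notum, Rnf43 and Lgr5, and on the same strand, as non-coding records, at Lef1, Tcf7, Nkd1 and Rnf43.

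Expected counts were rounded and fitted in R 4.3.3 with DESeq2 1.42.0 (Wald test, genotype as the only term, all 9 libraries, Benjamini-Hochberg adjusted p of at most 0.05 over all genes tested). DESeq2 was the main test because the study used it (DESeq2 1.16.1), and edgeR 4.0.16 was an alternative. Normalised read counts are counts divided by DESeq2 size factors, and TPM values were compared without a test. Replicate numbers come from the library titles. Over 12316 genes, deviations from the genotype mean correlated at 0.698 on average where libraries of 2 genotypes shared a number (9 pairs, 0.523 to 0.812), against -0.338 where they did not (18 pairs). The numbers were therefore taken to pair the libraries, and blocked values are given where they change a call on a member. For the other pathway genes and the markers, only some of the calls made with the block are given. The effect of the number was tested with the likelihood ratio test. Each pair of libraries differed by more than counting noise.

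Genes of the pathway lists are named if they are among the 4 largest calls, in size of log2 fold change, or the 2 highest in TPM of their list, a call needing an average of 50 normalised counts. The result for 1 gene that this rule names is not reported here. The members, lists and tests were chosen with earlier results of these data known. Alternatives were the block, edgeR with and without it, TMM factors, at least 10 counts in at least 3 libraries, a threshold of 0.01, fits without the third genotype, and leaving out each library. Leaving out each library in the blocked fit was added after seeing the data. On simulated counts for CdxKO against WT with a replicate effect (14558 genes, 200 changed), DESeq2 recovered 32.5% of changed genes without the block and 69% with it. At a 1.5-fold change, the smallest simulated, it recovered 0% and 28.4%. The simulation gave every gene a replicate effect, a setting that favours the block, and the same spread beyond counting noise. These shares therefore do not give the power of the tests on these data. Coordinates are from GENCODE M21 on GRCm38, the assembly of mm10, counted from 1. Promoter windows are from RefSeq.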

Additional observations from a re-analysis of the deposited data

Results flagged for a closer look

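Between the mutants, by the direct test of CdxKO against T/BraKO, 1 of the 10 genes was called lower in CdxKO without the replicate block, beside 0.962% of all genes, and 4 with it, beside 6.90%. Sp5 differed by a log2 fold change of -0.67 (DESeq2, adjusted p = 1.01e-05). All 3 CdxKO libraries lay below all 3 T/BraKO libraries, as in 6.92% of all genes tested. With the replicate block only, Notum differed by -0.55 (DESeq2, adjusted p = 3.83e-05), Dkk1 by -1.04 (adjusted p = 0.0413) and Axin2 by -0.19 (adjusted p = 0.0451). Each was lower in CdxKO within all 3 numbers, which is no separate support, since the same pairing gave the calls. For Axin2 the log2 difference within number 2 was -0.037. The edgeR test with the block gave adjusted p of 0.0136 for Notum, 0.0251 for Dkk1 and 0.0794 for Axin2, which it did not call. The DESeq2 calls on Dkk1 and Axin2 were lost in 8 and 7 of the 9 fits with 1 library left out, and that on Notum in 3.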

How the results depend on the processing

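TMM factors, the low-count filter, the fits to 6 libraries, the threshold of 0.01, edgeR and leaving out 1 library did not move the counts of members called without the block, and both calls on Sp5 were kept under all 16 alternatives. Counts of called members moved with the block: 5 (edgeR with block 4) in T/BraKO against WT, 4 (edgeR with block 3) in CdxKO against T/BraKO, and 1 for edgeR with block in CdxKO against WT. Counts of other pathway genes called with the block, with edgeR and with both were 10, 0 and 9 for CdxKO against WT. The same counts for T/BraKO against WT were 17, 0 and 16. Those between the mutants were 23, 2 and 26, where an adjusted p of at most 0.01 gave 2. Leaving out 1 library gave 0 to 3 other pathway genes in T/BraKO against WT (0 without WT replicate 1 or T/BraKO replicate 1) and 2 to 7 in CdxKO against T/BraKO. In the blocked fit it gave 0 to 1 called members in CdxKO against WT (1 without T/BraKO replicate 2), 1 to 6 in T/BraKO against WT (1 without WT replicate 1 or T/BraKO replicate 3) and 1 to 3 in CdxKO against T/BraKO (1 without T/BraKO replicate 3). The cause was not tested. In CdxKO against WT, Nkd1 turned to -0.0074 and Notum to -0.015 with the block, and to -0.0049 and -0.0080 for edgeR with block, none of them called. With 1 library left out, the log2 fold change of CdxKO from WT ranged through 0 in 9 members, none of them called: Sp5 (-0.073 to 0.14), Lef1 (-0.059 to 0.33), Tcf7 (-0.051 to 0.018), Axin2 (-0.10 to 0.056), Nkd1 (-0.17 to 0.25), Notum (-0.14 to 0.32), Dkk1 (-0.44 to 0.81), Rnf43 (-0.079 to 0.59) and Lgr5 (-0.33 to 0.32). In the other comparisons, uncalled members did so too: against WT in T/BraKO, Nkd1 (-0.025 to 0.28), Rnf43 (-0.32 to 0.29) and Lgr5 (-0.53 to 0.070), and between the mutants Lef1 (-0.28 to 0.12), Nkd1 (-0.29 to 0.14), Znrf3 (-0.12 to 0.011), Rnf43 (-0.052 to 0.60) and Lgr5 (-0.10 to 0.56).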
